A study of Mus musculus with 68 samples.

Results

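A set of 10 genes that mark or drive the formation of fat cells was followed across cultured mouse bone stromal cells: Cebpb, Cebpd, Pparg, Cebpa, Fabp4, Cd36, Lpl, Plin1, Adipoq and Cfd. They were chosen by name, not by their values, and are 10 of the 27179 genes in the count table. In adipocyte differentiation the early factors Cebpb and Cebpd come first and activate Pparg and Cebpa, the nuclear receptor and the C/EBP factor that then maintain each other and switch on genes for taking up, storing and releasing fat. Stromal cells of the marrow can become osteoblasts or adipocytes, and marrow fat grows with age. Ezh2 is the enzyme of Polycomb repressive complex PRC2 that methylates lysine 27 of histone H3, a mark of silenced genes. In the RefSeq annotation of GRCm38.p6 the transcription factor genes span Cebpb (Entrez 12608) chr2:167688915-167690432, Cebpd (Entrez 12609) chr16:15887286-15889545, Pparg (Entrez 19016) chr6:115360879-115490404 and Cebpa (Entrez 12606) chr7:35119293-35121928. The fat-handling genes span Fabp4 (Entrez 11770) chr3:10204342-10208616, Cd36 (Entrez 12491) chr5:17781690-17888959 and Lpl (Entrez 16956) chr8:68880555-68906932, and the genes of differentiated fat cells span Plin1 (Entrez 103968) chr7:79721164-79732904, Adipoq (Entrez 11450) chr16:23146536-23157968 and Cfd (Entrez 11537) chr10:79890853-79892655.

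The cells were mesenchymal stromal cells from the long bones, grown in regular medium with no adipogenic treatment named in the labels. WT cells came from Ezh2+/+:Prrx-1-Cre mice and Het cells from Ezh2fl/+:Prrx-1-Cre mice, so that both genotypes carried the Cre, whose promoter is active in limb bud mesenchyme; only cells with Cre activity, or their progeny, lose the floxed allele. The labels gave 4 WT and 3 Het samples at 3 months of age (WT 3M: S3, S4, S5, S12; Het 3M: S8, S10, S14) and 4 WT and 6 Het samples at 12 months (WT 12M: S2, S6, S7, S13; Het 12M: S1, S9, S11, S15, S16, S17), although the series text speaks of 3 per group. Labelled male were S5 and S12 in WT 3M, S8 and S10 in Het 3M, S2 and S13 in WT 12M and S17 in Het 12M. All others were labelled female, so the labelled sexes were not balanced between groups. The labels do not say whether each sample was a separate animal, so the p-values measure the spread between these samples. Levels below are normalised read counts per 1000000 counts (CPM), and a library is the sum of the 4 technical replicates of a sample.

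Total counts lay between 13687876 and 28597221 per library. Ezh2 itself averaged 12.6 ± 2.33 CPM (SD over libraries) in WT 3M, 11.1 ± 2.29 in Het 3M, 19.8 ± 12.3 in WT 12M and 17.8 ± 5.52 in Het 12M, and the log2 difference of Het from WT was -0.19 ± 0.43 (SE) at 3 months and -0.16 ± 0.36 at 12 months (adjusted p = 1 and 0.924, edgeR); reads outside the deleted part of the gene would not show the deletion. Sex-linked transcripts went against the labelled sex in all 4 WT 12M libraries and in 0 others. Whether the sex label or the group label of these libraries is at fault could not be settled, so every value of WT 12M is that of the libraries labelled so. Het 12M S9, WT 12M S6 and Het 12M S15 are called below the 3 libraries that stood apart, S9 and S6 by high cell markers. S15 was lowest in the macrophage and stromal sums, but its macrophage sum was close to the 51.4 CPM of WT 12M S6. The summed level of 18 macrophage markers was 46200 CPM in Het 12M S9 against 41.0 to 3332 CPM elsewhere, lowest in Het 12M S15, and the summed Schwann and neural crest markers reached 1208 CPM in WT 12M S6 against 18.7 to 114 CPM in the others. The summed stromal markers ranged from 9895 CPM in Het 12M S15 to 41100 CPM in Het 3M S8, so these markers were read in every library. A summed level does not tell which cells the reads came from.

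The 4 regulators were well above detection in all libraries, and Adipoq, Cfd and Plin1, products of mature fat cells, were scarce. Per kilobase of exon, the median level over the 17 libraries was 126 CPM for Cebpd, 114 for Cebpb, 22.1 for Cebpa, 16.6 for Fabp4, 16.5 for Lpl, 12.1 for Cd36, 7.83 for Pparg, 2.23 for Adipoq, 0.156 for Cfd and 0.135 for Plin1. The ranges over libraries overlapped between all neighbours in this order. Within libraries, Cebpb was above Cebpa, and Pparg above Adipoq, in 17 of 17, whereas Cebpd was above Cebpb in 11, Fabp4 above Lpl in 7, Cd36 above Pparg in 9 and Cfd above Plin1 in 8. The count table held 13 markers of mature adipocytes outside the 10 genes, and 5 of them passed the filter on low counts. Their summed level ran from 21.2 to 65.2 CPM over the 17 libraries, with a median of 34.2. Of this list, Lep, which encodes leptin, had 0 counts in all 17 libraries, and Cidec, a lipid droplet protein of fat cells, had 14 counts in all. With 0 counts a library's level of Lep may still be up to 0.102 to 0.218 CPM, the level of 3 counts.

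**Figure D1:**
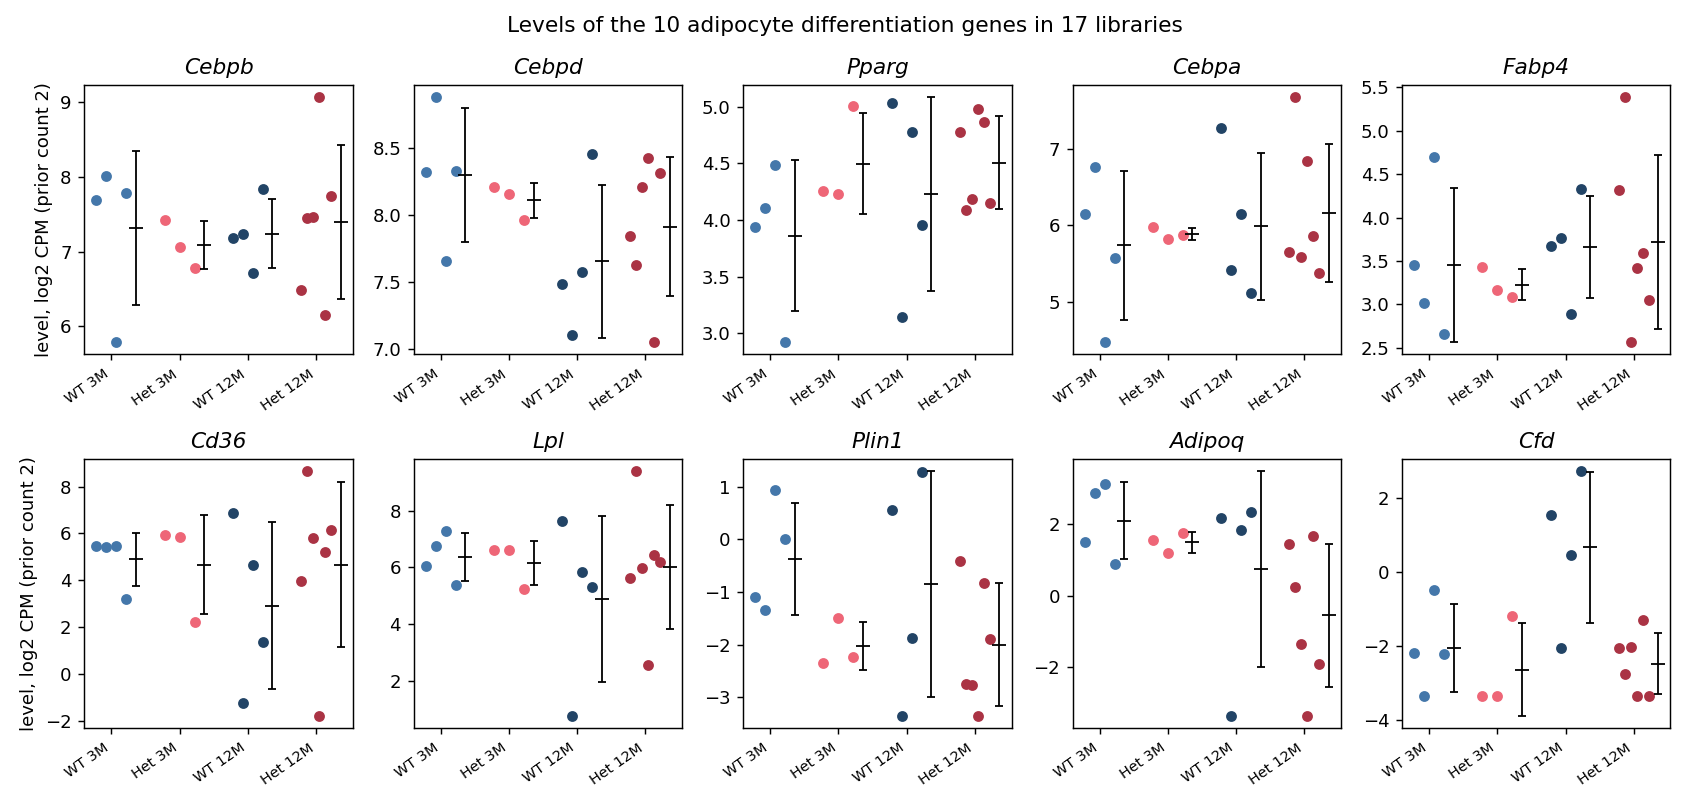
Level of each gene in each library, as log2 CPM with a prior count of 2 (vertical axis), by genotype and age (horizontal axis). Each point is a library and the black mark with its bar is the group mean ± SD; Cd36, Lpl, Adipoq, Plin1 and Cfd spread over a far wider range than the 4 regulators, and the vertical axes differ between genes.

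Cebpb and Cebpd, the early C/EBP factors, which also respond to hormones and inflammatory signals, were the most abundant. Cebpb measured 206, 259, 55.1 and 221 CPM in WT 3M S3, S4, S5 and S12, and 172, 134 and 110 CPM in Het 3M S8, S10 and S14. It measured 145, 151, 105 and 229 CPM in WT 12M S2, S6, S7 and S13, and in Het 12M it had a lowest value of 70.8, a median of 176 and a highest of 537 CPM, in S15. All groups overlapped. Over all libraries Cebpd was steadier, with an SD of 33.2% of its mean against 60.8% for Cebpb, but not within WT 12M (43.8% against 33.1%). It measured 320, 472, 201 and 322 CPM in WT 3M, 296, 285 and 249 CPM in Het 3M, and 179, 137, 190 and 351 CPM in WT 12M, in the same order of samples. In Het 12M its lowest value was 132, its median 263 and its highest 344 CPM. Both genes had the same low and high libraries in part, with a Spearman rho of 0.82 over 17 libraries that share the culture method and the normalisation.

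Pparg, the receptor that is required for fat cell formation, was present in every library at a modest level. It measured 15.2, 17.1, 22.3 and 7.47 CPM in WT 3M, 19.0, 18.6 and 32.1 CPM in Het 3M and 32.6, 8.74, 27.4 and 15.4 CPM in WT 12M. In Het 12M it ranged from 16.9 to 31.5 CPM with a median of 22.7. The lowest values were in WT 3M S12 and WT 12M S6, and all groups overlapped. Cebpa, which is also a factor of the myeloid lineage, measured 71.0, 109, 22.1 and 47.5 CPM in WT 3M, 62.9, 56.4 and 58.5 CPM in Het 3M and 154, 42.5, 70.5 and 34.7 CPM in WT 12M. In Het 12M it ranged from 41.6 to 205 CPM with a median of 54.0, and its highest library was S9, the library with the most macrophage marker reads.

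Among the fat-handling genes, Fabp4, the fatty acid carrier of adipocytes, which macrophages and capillary endothelium also make, was low in CPM in all groups. It measured 10.8, 7.98, 25.7 and 6.25 CPM in WT 3M, 10.7, 8.87 and 8.42 CPM in Het 3M and 12.7, 13.5, 7.3 and 19.9 CPM in WT 12M. In Het 12M it ranged from 5.83 to 41.7 CPM with a median of 11.3, highest in S9. WT 3M S5, which had its highest value at 3 months, also had the highest summed endothelial markers, 113 CPM against 8.50 to 62.4 CPM elsewhere. Over all 17 libraries, Fabp4 and the endothelial sum gave r = 0.20 and rho = 0.06 (adjusted permutation p = 0.74 and 0.858). Without WT 3M S5 and Het 3M S8 the r was -0.09, and within groups, as deviations from group means, it was 0.39. Which cells made the Fabp4 reads was not tested.

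Cd36, a fatty acid transporter and scavenger receptor of adipocytes, macrophages and capillary endothelium, varied widely between libraries of a group, and its highest Het 12M library was 2066 times its lowest. It measured 44.7, 42.4, 43.8 and 9.25 CPM in WT 3M, 60.6, 57.7 and 4.66 CPM in Het 3M and 117, 0.336, 25.1 and 2.47 CPM in WT 12M. In Het 12M it ran from 0.196 CPM in S15 to 405 CPM in S9, with a median of 46.7. Lpl, the lipase that frees fatty acids from circulating lipoproteins, followed the same libraries: 66.9, 109, 156 and 41.0 CPM in WT 3M, 97.9, 96.9 and 37.6 CPM in Het 3M and 198, 1.58, 57.5 and 39.5 CPM in WT 12M. In Het 12M it ran from 5.69 CPM in S15 to 680 CPM in S9, with a median of 67.7. For both genes WT 12M S6 and Het 12M S15 were the lowest libraries and Het 12M S9 the highest, and their Spearman rho was 0.865 over the 17 libraries.

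Plin1, Adipoq and Cfd are products of differentiated fat cells: perilipin 1 coats the lipid droplet and gates lipolysis, adiponectin is a secreted hormone, and adipsin is complement factor D, secreted by fat cells. Adipoq was measurable in 15 libraries. It measured 2.75, 7.19, 8.65 and 1.74 CPM in WT 3M and 2.84, 2.17 and 3.24 CPM in Het 3M, and 4.36, 0, 3.47 and 4.94 CPM in WT 12M. In Het 12M it was 2.61 CPM in S1, 1.09 in S9, 0.294 in S11, 0 in S15, 3.05 in S16 and 0.170 in S17. In Het 12M, 4 of the 6 libraries were therefore below every library of the 3-month groups, while S1 and S16 lay within them.

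Plin1 was near the limit of detection, with 187 counts over all libraries. It had 9, 6, 38 and 23 counts in WT 3M against 2, 5 and 2 in Het 3M, or 0.296 to 1.83 CPM against 0.0995 to 0.258 CPM, and these groups did not overlap. It had 24, 0, 4 and 49 counts in WT 12M and 9, 1, 1, 0, 9 and 5 in Het 12M. Cfd was lower still outside WT 12M, with 3, 0, 13 and 3 counts in WT 3M, 0, 0 and 6 in Het 3M and 2, 1, 3, 0, 6 and 0 in Het 12M. In WT 12M it had 49, 3, 29 and 138 counts, or 2.81, 0.144, 1.27 and 6.56 CPM, so that S2, S7 and S13 lay above all other libraries and S6 did not.

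Adipoq and Plin1 had a Spearman rho of 0.70 over the 17 libraries, Adipoq and Cfd 0.54, and Plin1 and Cfd 0.50. Adipoq and Plin1 both had 0 counts in WT 12M S6 and Het 12M S15, and Plin1 and Cfd had few counts elsewhere. Pparg had a rho of 0.28 with Adipoq, 0.006 with Plin1 and 0.29 with Cfd. As a description, the promoter windows of these 3 genes are shown with that of the most downstream of the 3 RefSeq starts of Pparg. Shared control of these genes was not tested. Each runs from 250 bases before to 50 bases after a start of transcription in RefSeq, GRCm38.p6, read 5′ to 3′ on the gene's strand, and capitals mark motif matches. The windows are chr6:115421816-115422115 for Pparg, chr16:23146286-23146585 for Adipoq and chr10:79890603-79890902 for Cfd, all on the plus strand, and chr7:79732727-79733026 for Plin1 on the minus strand.
Pparg: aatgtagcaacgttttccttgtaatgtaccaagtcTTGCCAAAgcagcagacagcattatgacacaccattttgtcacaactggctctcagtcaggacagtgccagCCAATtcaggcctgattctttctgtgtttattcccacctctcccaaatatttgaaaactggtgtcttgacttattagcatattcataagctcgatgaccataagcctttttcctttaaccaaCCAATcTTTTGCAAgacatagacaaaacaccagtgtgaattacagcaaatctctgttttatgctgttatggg
Plin1: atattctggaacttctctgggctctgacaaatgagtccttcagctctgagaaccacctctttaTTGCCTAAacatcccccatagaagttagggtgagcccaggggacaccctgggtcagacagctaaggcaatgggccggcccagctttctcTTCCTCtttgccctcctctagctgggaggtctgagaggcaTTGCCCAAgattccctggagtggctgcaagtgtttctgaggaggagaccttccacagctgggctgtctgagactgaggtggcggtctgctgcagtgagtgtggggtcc
Adipoq: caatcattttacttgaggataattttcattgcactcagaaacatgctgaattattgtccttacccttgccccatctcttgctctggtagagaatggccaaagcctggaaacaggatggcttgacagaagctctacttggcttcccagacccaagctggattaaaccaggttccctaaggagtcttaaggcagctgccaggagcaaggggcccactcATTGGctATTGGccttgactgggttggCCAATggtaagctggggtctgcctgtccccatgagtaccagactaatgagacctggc
Cfd: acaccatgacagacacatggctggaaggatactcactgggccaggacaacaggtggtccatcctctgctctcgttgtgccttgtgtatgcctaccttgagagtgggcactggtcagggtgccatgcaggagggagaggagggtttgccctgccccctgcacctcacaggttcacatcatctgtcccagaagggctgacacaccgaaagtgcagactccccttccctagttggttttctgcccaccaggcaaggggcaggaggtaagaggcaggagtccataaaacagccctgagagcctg

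Motifs were searched on both strands by their letters: TTGCNNAA for C/EBP, AGGTCANAGGTCA for the PPAR-RXR direct repeat, AGGTCA for a nuclear receptor core, GAGGAA for the PU.1 core, TATAAA and CCAAT; matches of AGGTCA inside a direct repeat would count in both. The Pparg window held the C/EBP letters at bases -215 and -16 from the start and the Plin1 window at -187 and -58. Among the 9 windows found for 7 of the genes, these 2 were the only ones with the C/EBP letters. Of all 32851 promoter windows of that length, 10.8% held them. The other Pparg windows, which are not shown, each held AGGTCA and no C/EBP letters. AGGTCA was in 3 of the 9 windows and in 16.3% of all windows. The Adipoq window held the CCAAT letters at -34, -27 and -7, and 37.4% of windows held at least 1. The Plin1 window also had the GAGGAA letters at -98, found in 28.3% of windows, and the Cfd window had none of the 6 motifs. The direct repeat was in 0 of the 9 windows found for 7 of the genes and in 0.0396% of all windows. A match describes letters only.

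The question of the design was whether Ezh2 dose and age changed the cells. The edgeR quasi-likelihood test over all 17 libraries, with Benjamini-Hochberg adjustment over 14897 genes, called 0 of the 10 genes at an adjusted p under 0.05 in any comparison, and 0 of all genes (0% called in each). At an unadjusted p under 0.05 the test picked out 0 of 10 genes for Het against WT at 3 months (1.6% of all genes), 1 of 10 at 12 months (8.36%), 1 of 10 for 12 against 3 months in WT (8.22%), 0 of 10 for that contrast in Het (3.28%) and 0 of 10 for the interaction of genotype and age (5.76%). The single gene was Cfd each time. Comparisons that share a group share its libraries.

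At 3 months, Het cells had fitted values above WT for 2 of the 10 genes (47.5% of all genes were fitted higher), and the median log2 difference was -0.34 against -0.02 over all genes. Pparg differed by 0.58 ± 0.42 (log2 fold change ± SE, adjusted p = 1) and Plin1 by -2.39 ± 1.34 (p = 0.094, adjusted p = 1, edgeR). Plin1 was the single member of the 10 whose groups did not overlap, a state that 6.78% of all genes shared. It passed the filter on low counts through 2 WT 3M, 0 Het 3M, 2 WT 12M and 1 Het 12M libraries. A gene tested in this way had to be high in some group. Its Het 3M libraries held 2, 5 and 2 counts, near the limit of detection. The differences of the other 8 genes ran from -0.93 for Cfd to 0.23 for Cd36, and all had 95% intervals that held 0. The interval for Cd36, -3.04 to 3.49, was wide, whereas that for Cebpd was -1.01 to 0.52.

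At 12 months, 7 of the 10 genes had higher fitted values in Het cells (55.7% of all genes), and the median was 0.21 against 0.05 over all genes. Cfd differed by -4.58 ± 1.19, with 12 counts in the 6 Het libraries against 219 in the 4 WT libraries (p = 0.00134, adjusted p = 0.229, edgeR). DESeq2 called it, with -4.63 and an adjusted p of 0.0285, and the adjusted p over the other alternatives lay between 0.0618 and 0.403. WT 12M S13 held 138 of the 219 counts, and without it the difference was -3.65 (adjusted p = 0.38, edgeR). The 4 WT 12M libraries are those whose sex-linked transcripts went against their label; with a covariate of Y-linked transcripts the difference was -4.83 (adjusted p = 0.243) and with the labelled sex as a term -4.10 (adjusted p = 0.403). Cfd passed the filter on low counts through 3 WT 12M libraries and 1 WT 3M library, so a gene tested here had to be high in some group. The difference rests on the libraries labelled WT 12M. Plin1 differed by -2.07 ± 1.03 (p = 0.0612, adjusted p = 0.623) and Adipoq by -1.41 ± 1.02 (p = 0.185, adjusted p = 0.718).

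Cd36 and Lpl had fitted differences of 1.43 ± 1.37 and 1.11 ± 1.06 at 12 months (adjusted p = 0.79 for each, edgeR), and single libraries moved both. Without Het 12M S9 they were 0.00 and -0.41, and without WT 12M S2, the WT library with the most macrophage marker reads, 3.34 and 2.24. Without the 3 libraries that stood apart they were -0.09 and -0.53. The 18 macrophage markers were fitted higher in Het 12M for 18 of 18 genes (55.7% of all genes), with a median of 2.07 against 0.05 over all genes. As markers of 1 cell type they are not independent. Only 1 of the 18 had an unadjusted p under 0.05, and 0 were called (edgeR). The summed level of these markers ran from 51.4 to 3332 CPM in WT 12M. In Het 12M it ran from 41.0 CPM to 46200 CPM in S9, where the next library had 2865 CPM. The part of these markers in the Cd36 and Lpl differences was not tested in that comparison.

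**Figure D2:**
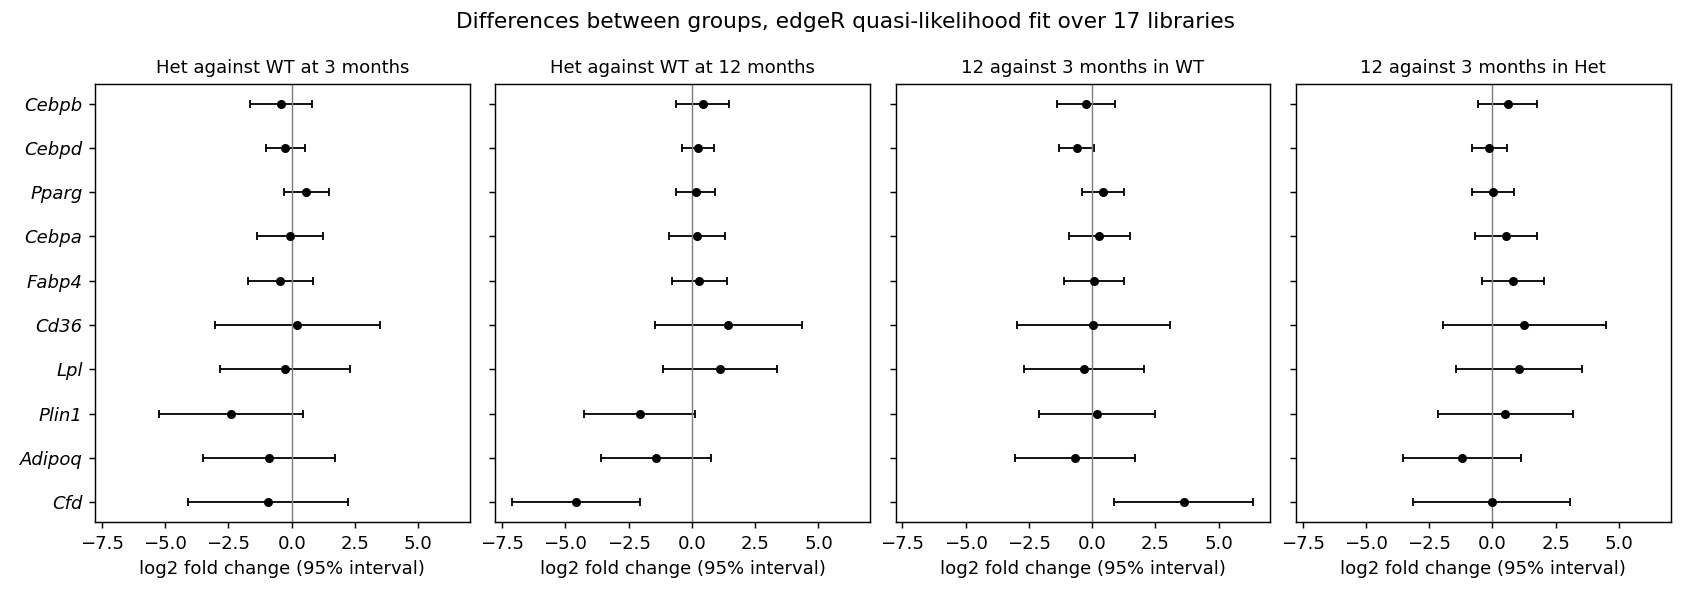
Log2 fold change of each gene in the 4 comparisons of groups (horizontal axis), with bars for the 95% interval, from the edgeR fit over 17 libraries. The intervals of Cfd for Het against WT at 12 months and for 12 against 3 months in WT lie on 1 side of 0 before adjustment; the intervals of Cd36, Lpl, Plin1, Adipoq and Cfd are wider than those of the regulators.

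With age in WT cells, 6 of the 10 genes had higher fitted values (53.8% of all genes) and the median was 0.06 against 0.04. Cfd was 3.61 ± 1.30 higher by the fit (p = 0.0131, adjusted p = 0.567, edgeR), with 219 counts in the 4 libraries at 12 months and 19 in the 4 at 3 months, and S6 stayed within the 3-month range. Cfd passed the filter on low counts through 3 WT 12M libraries and 1 WT 3M library. It thus entered this test mainly through the group where it was high. The same doubt about the labels of WT 12M bears on the difference. Under the covariate of Y-linked transcripts that difference was 2.50 (p = 0.109), without WT 12M S13 it was 2.69 and without WT 3M S5 4.92. Cebpd had a fitted difference of -0.62 ± 0.33 (p = 0.083, adjusted p = 0.637), and 3 of the 4 WT 12M libraries lay below every WT 3M library. A fit with sample quality weights, limma voom, called both genes, at -0.82 for Cebpd (adjusted p = 0.0234) and 3.95 for Cfd (adjusted p = 0.00646). That fit used the same filter on low counts and called 1508 genes in this comparison, against 0 by edgeR and 52 by DESeq2.

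With age in Het cells, 7 of the 10 genes had higher fitted values (57.7% of all genes), the median was 0.52 against 0.07 over all genes, and the smallest unadjusted p of a member was that of Fabp4, 0.81 ± 0.57 (p = 0.176, adjusted p = 0.946). Without Het 12M S9, the library highest in Fabp4, the difference was 0.27. Adipoq had a fitted difference of -1.20 ± 1.10 and Cfd of -0.04 ± 1.47, and without Het 3M S14, which held all 6 counts of Cfd in its group, Cfd gave 4.22. For the interaction of genotype and age, 7 of the 10 genes were fitted higher (56.3% of all genes), and Cfd gave -3.65 ± 1.97 (p = 0.0816, adjusted p = 0.899), and 0.61 without Het 3M S14. The genotype difference of Cfd at 12 months was thus not shown to differ from that at 3 months. Without S14 the Het 3M group held 0 counts of Cfd, so the values of 4.22 and 0.61 rest on a group at 0 and do not estimate a change.

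None of the 13 relations of Pparg or Cebpa with each other and with Fabp4, Adipoq, Lpl, Plin1, Cd36 and Cfd passed a permutation test with 100000 draws: the smallest adjusted p was 0.757 for Pearson's r and 0.6 for Spearman's rho. Pparg and Cebpa had r = 0.27 and rho = 0.34 over 17 libraries (permutation p = 0.289 and 0.188), and r = 0.16 without the pair of libraries farthest from the median of Pparg. Pparg and Fabp4 had r = 0.09 and rho = 0.01 (permutation p = 0.737 and 0.982), and r = -0.10 without that pair. Within groups, as deviations from group means, r was 0.56 for Pparg with Adipoq and 0.50 for Pparg with Cfd, against pooled values of 0.24 and 0.21; without the 3 libraries that stood apart the within-group r was 0.65 and 0.29. The within-group values were not tested. Pparg and Cebpb had a rho of -0.49.

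**Figure D3:**
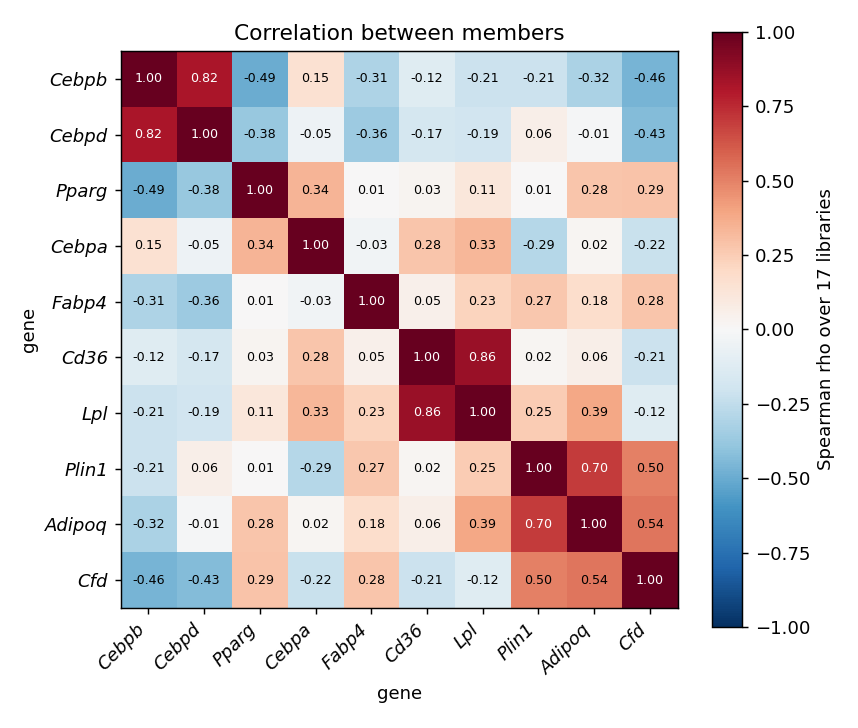
Spearman rho between each pair of the 10 genes over the 17 libraries, in the cells and by colour from -1 to 1, with genes on both axes. Cd36 with Lpl (0.865), Cebpb with Cebpd (0.82) and Adipoq with Plin1 (0.70) stand out; Pparg and Cebpa lie between -0.29 and 0.33 with the fat-handling and secreted genes.

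Cd36 and Lpl rose with the macrophage markers from library to library. Across 17 libraries, log2 Cd36 against the log2 sum of the 18 markers gave r = 0.94 and rho = 0.89 (permutation p = 1e-05 for both, the smallest that the draws can give, adjusted p = 0.0001 and 0.0002 over 20 relations). Without Het 12M S9 and S15 the r was 0.94, and within groups 0.95. Lpl gave r = 0.85 and rho = 0.81 (permutation p = 1e-05 and 0.00035, adjusted p = 0.0001 and 0.0035), r = 0.75 without those libraries and 0.86 within groups. None of the relations of the other 8 genes to the macrophage markers passed, with r from -0.21 for Cebpb to 0.46 for Cebpa and adjusted p of 0.177 or more. With the summed endothelial markers, rho was 0.74 for Lpl and 0.67 for Cd36 (adjusted permutation p = 0.00747 and 0.022). Pearson's r was 0.58 for each of Lpl, Cd36 and Adipoq (adjusted permutation p = 0.076 for each). Adipoq had a rho of 0.49 (adjusted permutation p = 0.186), and Cebpb an r of -0.50 (adjusted permutation p = 0.142). These 20 relations were chosen after the marker levels were known. In bulk cultures fewer cells of a type and less RNA per cell cannot be told apart.

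**Figure D4:**
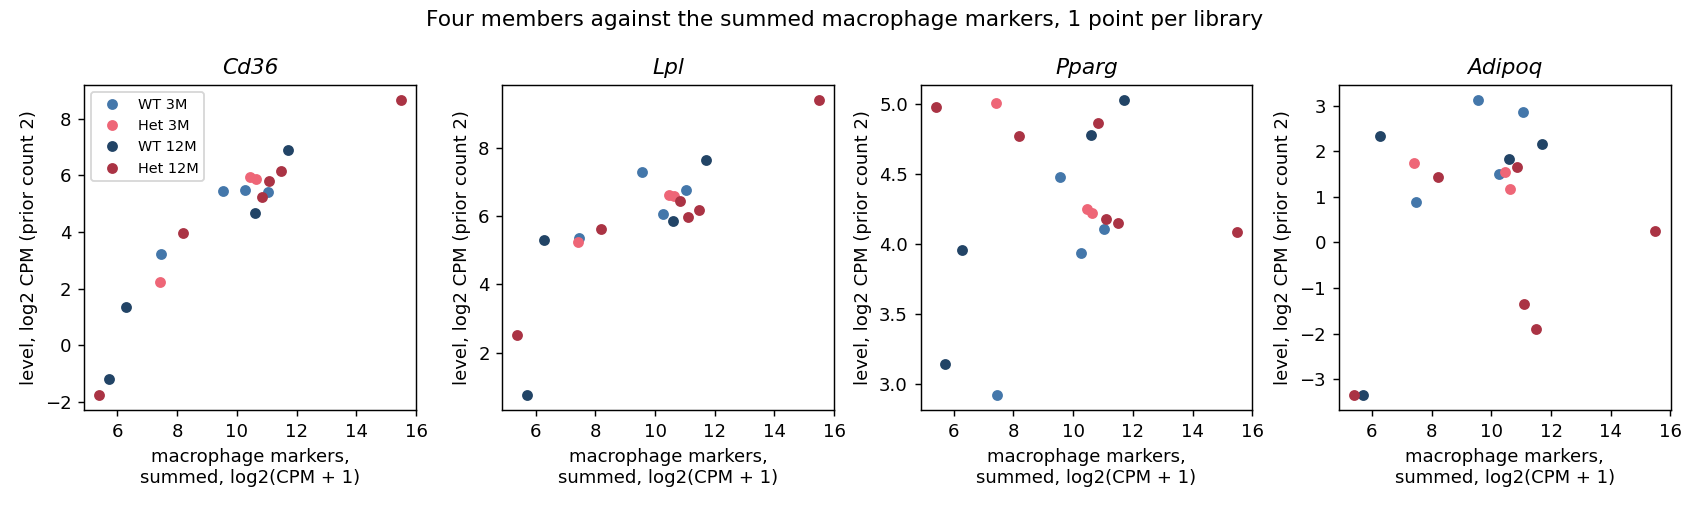
Level of Cd36, Lpl, Pparg and Adipoq (log2 CPM, prior count 2, vertical axes) against the summed level of 18 macrophage markers (log2 of CPM + 1, horizontal axis), with 1 point for each library, coloured by group. Cd36 and Lpl rise from left to right (r = 0.94 and 0.85), whereas Pparg (r = 0.15) and Adipoq (r = 0.28) do not pass the test.

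The genes most like each member, by Spearman rho over the 17 libraries among all genes tested, are given as a description. For Cd36 they were Msr1 (0.98), Pkib (0.97) and Clec7a (0.96), of which Msr1 and Clec7a encode macrophage receptors. For Lpl they were Cd93 (0.94), Fat3 (0.93) and Atp6v0d2 (0.91). For Adipoq they were Pdgfra (0.89), the receptor that marks mesenchymal progenitors, Tgfbr3 (0.87) and Kitl (0.82), the stem cell factor of marrow stroma. For Pparg they were Rspo2 (0.91), a secreted enhancer of Wnt signals, Rab40b (0.88) and Dync2li1 (0.86), and for Cebpa Manba (0.90) and Glb1 (0.89), both lysosomal glycosidases, and Lrrc61 (0.88). Cebpb was most like Adamtsl5 (0.89), Rnf126 and Mfsd5, Cebpd like Eva1c (0.85), Pla2g2e and Itgb7, Fabp4 like Ncapg2 (0.86), Casd1 and Hat1, Plin1 like Zfp976 (0.88), Oxtr and Rabgap1l, and Cfd like Mageh1 (0.84), Slc22a5 and Cspg4b. These are the highest of 14897 correlations each and were not tested.

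None of the wider adipocyte genes passed the test either. Of 198 further genes for regulators, lipid droplets, lipid synthesis, uptake, adipokines, thermogenic fat, progenitors and marrow stroma, 166 were tested and 0 were called in any comparison by edgeR. At an unadjusted p under 0.05, 1 was higher and 4 lower in Het cells at 3 months (3.01% of those tested, against 1.6% of all genes), 8 higher and 10 lower at 12 months (10.8% against 8.36%), 7 and 11 with age in WT (10.8% against 8.22%), 4 and 7 with age in Het (6.63% against 3.28%) and 9 and 8 for the interaction (10.2% against 5.76%). The smallest adjusted p over all 5 was 0.182. The genes named below were picked for the smallest p in each direction of a comparison, which favours groups that do not overlap. The shares of all genes without overlap are therefore no yardstick for them.

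At 3 months the smallest p-values belonged to Clec11a, a marker of stromal progenitors, with 376 ± 29.2 CPM in Het against 149 ± 59.9 in WT (log2 1.34 ± 0.51), and on the lower side to Tcf7l2, a Wnt effector, with 32.8 ± 2.20 against 50.5 ± 8.33 CPM (-0.62 ± 0.23). Vcam1, an adhesion molecule of marrow stroma, had 433 ± 4.77 against 238 ± 80.1 CPM. Me1, malic enzyme, had 68.5 ± 0.456 against 120 ± 36.5 CPM, Klf4, a pro-adipogenic factor, 88.4 ± 13.2 against 164 ± 62.7 CPM, and Lcn2, lipocalin 2, 84.9 ± 108 against 24.4 ± 25.9 CPM. Without Het 3M S14 the Lcn2 difference was -0.12 in place of 1.80. The groups of Clec11a, Vcam1, Tcf7l2 and Me1 did not overlap, as 6.78% of all genes did not, but they were picked by their small p. None of the 6 passed (adjusted p = 1 for each, edgeR).

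At 12 months the lower side in Het cells was led by Dio2, the deiodinase that activates thyroid hormone in brown fat, with 23.4 ± 7.75 CPM against 102 ± 81.2 in WT (log2 -2.12 ± 0.50, adjusted p = 0.182, edgeR). Ppara, a receptor that drives fatty acid oxidation, had 0.615 ± 0.362 against 2.23 ± 0.857 CPM (adjusted p = 0.188), and Rbp4, a retinol carrier secreted by fat and liver, 2.63 ± 1.5 against 11.3 ± 13.2 CPM, a log2 difference of -2.09 that was -0.87 without WT 12M S2. On the higher side were Fabp3, a fatty acid carrier, with 1.25 ± 0.681 against 0.366 ± 0.118 CPM, Ddit3, an inhibitory C/EBP partner, with 49.9 ± 13 against 21.6 ± 14 CPM, and Vldlr, a lipoprotein receptor, with 48.3 ± 24.1 against 21.9 ± 6.65 CPM. The groups of Fabp3 and Ddit3 did not overlap, which 1.32% of all genes showed, but both genes were picked by their small p.

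With age in WT cells, Klf4 had 63.7 ± 22.2 CPM at 12 months against 164 ± 62.7 at 3 months (log2 -1.36 ± 0.33, adjusted p = 0.407, edgeR), Vldlr 21.9 ± 6.65 against 77.4 ± 28.6 CPM and Slc2a1, the basal glucose transporter, 33.3 ± 4.55 against 75.5 ± 17 CPM. On the higher side were Clec11a (417 ± 325 against 149 ± 59.9 CPM), the desaturase Fads1 (212 ± 42.3 against 132 ± 28.6) and Gpd1, glycerol phosphate dehydrogenase (4.00 ± 1.79 against 1.27 ± 0.81). Vldlr, Slc2a1 and Gpd1 did not overlap between ages, as 8.1% of all genes did not. These genes and those named next for Het cells were again picked by their small p. In Het cells Lcn2 had 11.1 ± 5.04 CPM at 12 months against 84.9 ± 108 at 3 months and Esm1, of endothelium and fat progenitors, 37.3 ± 23.9 against 299 ± 391 CPM, both without overlap (1.91% of all genes), and Ppara 0.615 ± 0.362 against 1.65 ± 0.933 CPM. Without Het 3M S14, their highest library at 3 months, the log2 differences of Lcn2, Esm1 and Ppara went from -2.94, -3.00 and -1.42 to -1.01, -0.96 and -0.86. On the higher side, Fabp5, a fatty acid carrier, had 20.9 ± 40.6 against 2.79 ± 1.99 CPM, Egr2, a factor of early adipogenesis, 31.4 ± 24.2 against 11.4 ± 5.53 and Metrnl, a secreted factor, 70.6 ± 57.7 against 28.3 ± 2.84 (adjusted p = 0.946 for each, edgeR). All 3 were highest in Het 12M S9, with 104 CPM for Fabp5, and without it their log2 differences went from 2.90, 1.46 and 1.32 to 0.64, 0.94 and 0.96. The interaction was led by Klf4 (1.60), Tcf7l2 (1.01) and Me1 (1.17) on the higher and Ppara (-2.54), Lcn2 (-4.00) and Clec11a (-2.06) on the lower side, with adjusted p between 0.504 and 0.698; without Het 3M S14, Lcn2 gave -2.09 and Ppara -1.99.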

How the data were processed

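RNA was sequenced from cultured long-bone stromal cells after TruSeq RNA v2 library preparation, per the labels' protocols, a kit that does not mark strand, so reads of a gene and of an overlapping antisense gene cannot be told apart. The authors deposited whole-number read counts by Entrez gene, not normalised, in 68 columns, 4 technical replicates of each of 17 samples; Subread, featureCounts and mm10 are named in the submitters' processing notes, with no version. Technical replicates differed by about sampling noise (chi-square per degree of freedom of 1.003 to 1.094) and were summed. Symbols came from the reference tables for 25275 of 27179 genes; the 1904 others held 0.573% of counts.

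Counts were tested with edgeR 4.0.16 (R 4.3.3): TMM, filterByExpr (0.495 CPM in 3 libraries, which all 10 genes passed, Plin1 in 5 libraries and Cfd in 4), 1 term per group and a 2-sided quasi-likelihood test of 14897 genes, with Benjamini-Hochberg adjustment and a threshold of 0.05. No sex term was used, because sex-linked transcripts went against the labels in WT 12M. The fit's biological coefficient of variation was 0.512. DESeq2 1.42.0, limma 3.58.1 (voom), other scalings, filters, covariates and left-out libraries were alternatives. Groups came from the labels. The main edgeR fit was tested on simulated counts for Het against WT at 3 and at 12 months. The 10 genes, the lists and the tests were chosen with earlier results of these data known. Genes named outside the 10 are the 3 of the wider lists with the smallest p in each direction of a comparison and the 3 most correlated with each of the 10, predicted genes left out; Lep, Cidec, Ezh2 and markers were added as checks. Exon length was the union of RefSeq-linked exons. Promoter windows came from RefSeq, GRCm38.p6.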

Additional observations from a re-analysis of the deposited data

Results flagged for a closer look

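In 36 sets of values (10 genes and summed markers, in groups of 4 to 6 libraries) a check for a library far from the rest of its group picked out 6. About 1 in 20 would be picked by chance if values were normally distributed and sets independent. These were untransformed CPM and the sets share libraries, so that rate is no yardstick here. Cebpb was 537 CPM in Het 12M S15, and the next library of the group had 214 CPM. Lpl was 680 CPM in Het 12M S9, and the next 86.8 CPM. Cd36 was 405 CPM in Het 12M S9, and the next 71.5 CPM, while in WT 3M S12 it was 9.25 CPM, the lowest of the group, and the nearest 42.4 CPM. The summed macrophage markers were 46200 CPM in Het 12M S9 against 2865 CPM in the next library. The summed endothelial markers were 113 CPM in WT 3M S5 against 25.9 CPM in the next. The macrophage sum in WT 3M S12 was 176 CPM, also the lowest of its group.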

How the results depend on the processing

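No paired analysis was possible because the sample numbers S1 to S17 are each used in 1 group only, and the technical replicate numbers mark runs of the same sample. The 10 genes in 5 comparisons kept direction and side of the threshold in 459 of 510 fits with a library left out and in 384 of 434 other fits; most of these values have intervals that hold 0. DESeq2 called 103 genes for Het against WT at 12 months, 52 with age in WT, 1 with age in Het and 36 for the interaction, where edgeR called 0; voom with quality weights called 1292 at 3 months, 171 at 12 months, 1508 with age in WT, 1 with age in Het and 939 for the interaction. Of the 10 genes, DESeq2 called 1 (Cfd, 12 months, -4.63) and voom 2 (age in WT, Cebpd -0.82 and Cfd 3.95). Without the 3 libraries that stood apart, edgeR called 2 genes with age in WT, and with 1 library left out 0 to 2 at 12 months.

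Values that changed sign follow, in log2. Under voom they were, at 3 months, Fabp4 0.013 and Lpl 0.36; at 12 months, Pparg -0.31, Cebpa -0.65 and Fabp4 -0.066; with age in WT, Plin1 -0.040 and Cd36 -0.67; with age in Het, Cebpa -0.19, Cebpb -0.052, Fabp4 -0.058, Lpl -0.31, Cd36 -0.098 and Cfd 1.24; and for the interaction, Cebpa -0.42, Fabp4 -0.079 and Lpl -0.19. With the labelled sex they were, at 3 months, Cebpa 0.10 and Cd36 -0.36; at 12 months, Cebpa -0.062; with age in WT, Plin1 -0.21 and Cd36 -0.38; with age in Het, Pparg -0.067 and Cfd 0.12; and for the interaction, Cebpa -0.16. With the Y-linked covariate they were Cebpa 0.24 at 3 months and -0.091 at 12 months, Plin1 -0.053 and Cd36 -0.17 with age in WT, Pparg -0.17 and Cebpa -0.066 with age in Het, and Cebpa -0.33 for the interaction. Without the 3 libraries that stood apart they were, at 12 months, Pparg -0.13, Cebpa -0.81, Cebpb -0.20, Fabp4 -0.21, Lpl -0.53 and Cd36 -0.093; with age in WT, Lpl 0.086; with age in Het, Pparg -0.023, Cebpa -0.27, Cebpb -0.012, Lpl -0.19 and Cfd 0.37; and for the interaction, Cebpa -0.74, Lpl -0.28 and Cd36 -0.33. On 2 groups alone, Pparg with age in Het was -0.004; Plin1 and Cfd failed the filter there at 3 months, at 12 months and with age in Het. The causes were not tested.

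Leaving out 1 library at a time, ranges that crossed 0 were, at 3 months, Cebpa -0.35 to 0.35, Fabp4 -0.65 to 0.16, Lpl -0.50 to 0.10, Cd36 -0.18 to 0.75 and Cfd -5.18 to 0.40. At 12 months they were Pparg -0.11 to 0.44, Cebpa -0.28 to 0.79, Cebpb -0.13 to 0.64, Fabp4 -0.24 to 0.52 and Lpl -0.41 to 2.24. With age in WT they were Cebpa -0.34 to 0.69, Fabp4 -0.17 to 0.67, Lpl -1.50 to 0.086, Plin1 -0.72 to 0.87 and Cd36 -1.90 to 0.46. With age in Het they were Pparg -0.12 to 0.32, Lpl -0.48 to 1.25, Plin1 -0.063 to 1.05, Cd36 -0.18 to 1.58 and Cfd -0.73 to 4.22. For the interaction they were Cebpa -0.21 to 0.86, Lpl -0.16 to 2.50, Plin1 -0.36 to 1.21, Cd36 -0.23 to 3.11 and Cfd -4.97 to 0.61. Depth limits Plin1 and Cfd most, with single counts in many libraries. The Cfd values of -5.18, 4.22 and 0.61 came without Het 3M S14, which left Het 3M with 0 counts of Cfd, and do not estimate a change.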

Other observations

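The most alike pair of separate samples was Het 3M S8 and S10, with a chi-square per degree of freedom of 18.5 against 40.9 for the next pair, far above the technical replicates. They were counted as 2 samples.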
